A study of Mus musculus with 12 samples.

Results

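Connexins, the Cadm family of cell adhesion molecules and Vcam1 were followed in the testis of mice given lentivirus. They were the 10 genes of the expression table whose symbol was Gja1, Gja4, Gja5, Gjb2, Gjc1, Cadm1, Cadm2, Cadm3, Cadm4 or Vcam1, out of 20718 genes in all, and each symbol matched 1 gene. The testis RNA of 12 libraries was sequenced in 4 groups of 3. In F0_5251KD the testes received a mix of 3 shRNA viruses against lncRNA5251, a long non-coding RNA, in the lentivirus-3 (LV3) backbone, and F0_3NC received the negative control in that backbone. In F0_5251OV they received full-length lncRNA5251 in the lentivirus-5 (LV5) backbone, and F0_5NC received that vector empty. All 4 groups were injected males. The labels write the strain as IRC mouse and the study's methods write ICR. By those methods the males were injected at 4 weeks of age, raised for 5 weeks, kept with females for 4 days and killed 4 days later. The virus was injected into the whole testis, so no cell type was targeted, and whether a group's 3 libraries stand for different animals is not stated in the labels. The p-values therefore measure the spread between libraries, which may be technical. No gene of the table carried the name lncRNA5251, so the target was not checked here.

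Connexins are 4-pass membrane proteins. They assemble into hemichannels, and hemichannels of neighbouring cells dock to form gap junctions, through which ions and small metabolites pass. In the testis, Gja1 (connexin 43) joins Sertoli cells to each other and to germ cells, also couples Leydig cells, and is needed for spermatogenesis. The Cadm proteins are immunoglobulin superfamily molecules that bind each other across the gap between cells, and loss of Cadm1 leaves male mice infertile because spermatids are shed early. Vcam1 is the adhesion receptor to which leukocytes bind through the alpha-4 beta-1 integrin.

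Totals were 15431383 to 16355720 estimated counts per library, a ratio of 1.06, and the markers of Sertoli, Leydig, peritubular muscle, endothelial and germ cells were all above 0 in every library. Epididymal genes stood apart. Their 5 listed genes summed to 120.9 and 123.4 CPM (counts set to equal library totals) in F0_5NC replicates 2 and 3 and to 86.5 and 64.5 CPM in F0_5251OV replicates 1 and 2, against 2.1 to 19.0 CPM in the other 8 libraries. Marker sums of F0_5NC replicate 1 were the highest of the 12 libraries for Sertoli cells (1687.4 CPM, against 881.8 to 1220.5). For the overexpression values discussed most, those without the 4 libraries with epididymal counts are given too; they then rest on 1 library in each group. Between LV3 and LV5 groups, an effect of the backbone and of a batch shared by its libraries cannot be told apart. In whole testis, fewer cells of a type and less RNA per cell cannot be told apart either.

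Promoter sequences are shown first for Gja1, the most abundant connexin, and Gja5, the connexin whose groups separated in 2 comparisons. Each runs 5′ to 3′ from 250 bases before to 50 bases after the RefSeq start on GRCm38.p6, and the capitals mark matches to AP-1 (TGANTCA), a GC box (GGGCGG) or a CCAAT box (CCAAT), searched on both strands. Gja1 lies on the plus strand (chr10:56377050-56377349) and so does Gja5 (chr3:97032152-97032451).
Gja1: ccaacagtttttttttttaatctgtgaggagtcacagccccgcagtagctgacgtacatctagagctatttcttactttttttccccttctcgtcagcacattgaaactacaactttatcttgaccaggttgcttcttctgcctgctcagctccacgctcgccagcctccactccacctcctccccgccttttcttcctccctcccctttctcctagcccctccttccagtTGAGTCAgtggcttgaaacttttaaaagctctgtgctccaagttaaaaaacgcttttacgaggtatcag
Gja5: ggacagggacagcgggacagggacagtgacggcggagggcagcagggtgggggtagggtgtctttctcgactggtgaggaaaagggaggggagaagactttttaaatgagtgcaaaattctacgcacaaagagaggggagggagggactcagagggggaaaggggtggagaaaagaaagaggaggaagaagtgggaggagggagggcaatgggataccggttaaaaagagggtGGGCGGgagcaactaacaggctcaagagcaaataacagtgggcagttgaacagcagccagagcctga

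Gja1 held the AP-1 motif, which Fos and Jun proteins bind, starting 19 bases before the start, and no GC box. Gja5 held a GC box starting 17 bases before the start, and no AP-1 motif. Of 32851 promoters of this length, 7.8% held the AP-1 motif, 35.7% the GC box and 37.4% the CCAAT box. Promoters were at hand for 7 of the 10 genes, those other than Vcam1, Gjc1 and Cadm1. Among the 7, the AP-1 motif was also in Cadm3, the weakest gene. The Cadm3 promoter (173367646 to 173367945) lies inside the span of the gene (173331892 to 173368139), so the start used is not its outermost. The match starts 186 bases before the start used and is shown to set it beside that of Gja1 (minus strand, chr1:173367853-173367903).
Cadm3: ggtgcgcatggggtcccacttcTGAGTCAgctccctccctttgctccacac

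GC boxes were in Cadm4 (4 matches, in a promoter of 77.0% GC), Gjb2 (2 matches), Gja4 and Cadm2, and Cadm2 alone of the 7 held CCAAT boxes (2 matches). These matches are a description of letters and not of bound factors. The same 7-letter match was thus present in a gene near the top of the level order and in the gene at its end.

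Levels were compared between genes in FPKM, which is divided by transcript length. The order of the mean over 12 libraries was Vcam1 (26.7 ± 6.10, SD), Cadm1 (20.6 ± 1.28), Gja1 (14.6 ± 2.04), Gjc1 (8.2 ± 1.27), Gja4 (0.992 ± 0.309), Cadm2 (0.949 ± 0.103), Cadm4 (0.757 ± 0.184), Gja5 (0.522 ± 0.135), Gjb2 (0.150 ± 0.0688) and Cadm3 (0.0725 ± 0.0427). Among 20440 genes with an FPKM above 0, Vcam1 stood above 82.1% and Cadm3 above 12.5%. The ranges over libraries of Cadm1 and Gja1, of Gja1 and Gjc1, and of Gjc1 and Gja4 did not overlap. Those of Vcam1 and Cadm1 did, with Vcam1 above Cadm1 in 10 of 12 libraries. Gja4 and Cadm2 could not be placed in order, since Gja4 was the higher in 7 of 12 libraries. Cadm2 was above Cadm4 in 10 of 12 libraries, Cadm4 above Gja5 in 10, Gja5 above Gjb2 in all 12 and Gjb2 above Cadm3 in 9. One gene took most of each family: Gja1 was 59.6% ± 5.36 (SD, n = 12) and Gjc1 33.6% ± 4.99 of the FPKM of the 5 connexins, and Cadm1 was 92.1% ± 0.723 of that of the 4 Cadm genes.

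**Figure D1:**
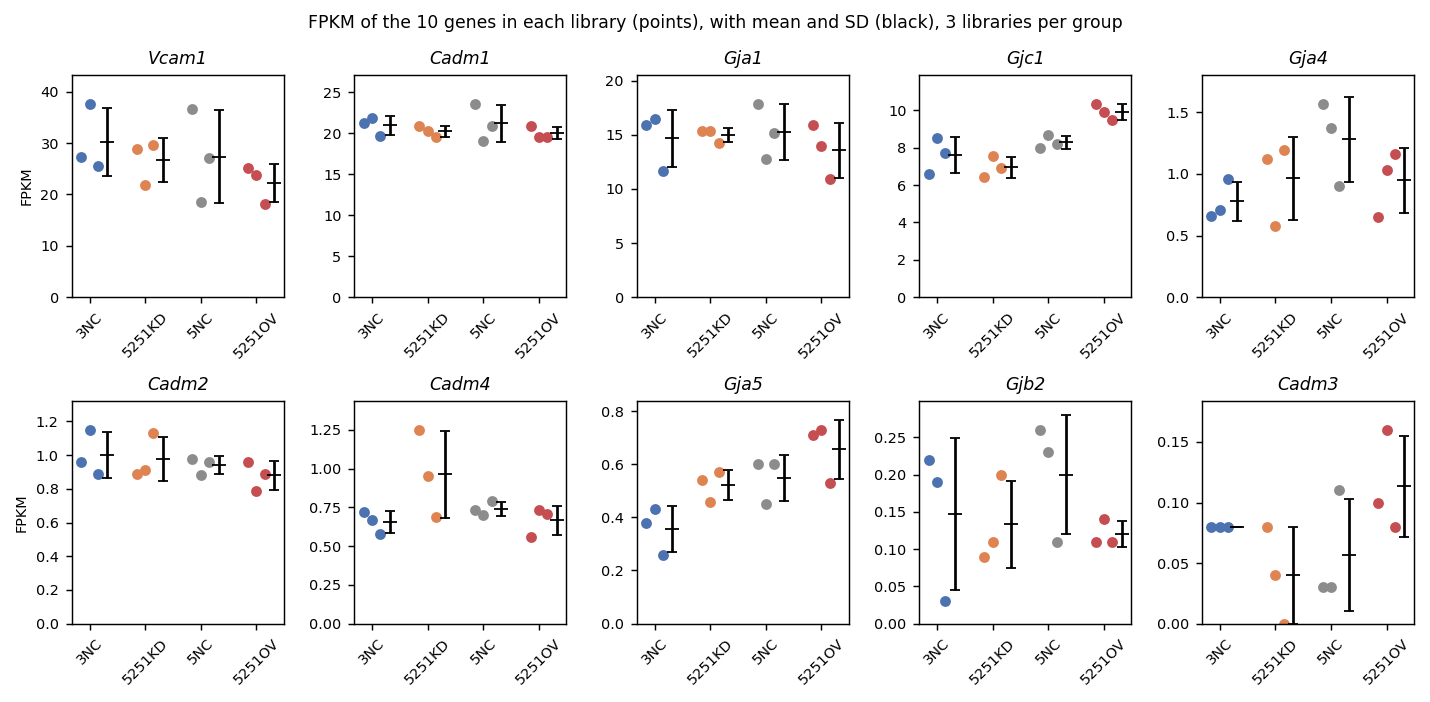
FPKM of each gene (vertical axis from 0, one panel per gene in order of level) in the 4 groups, with a point per library and the mean and SD of 3 libraries in black. Gjc1 in F0_5251OV (9.48 to 10.36) sits above all other groups, while the groups of Vcam1 overlap.

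No gene of the 10 passed the test in any comparison. The tests used edgeR's quasi-likelihood F test with Benjamini-Hochberg adjustment over all 16296 genes that passed the filter on low counts. Of the 10 genes 8 passed that filter, and Gjb2 and Cadm3 did not. In F0_5251KD vs F0_3NC 0 of 8 were called, where 0.0245% of all tested genes were, and 0 of 8 had an unadjusted p under 0.05 against 4.74% of all genes. In F0_5251OV vs F0_5NC 0 of 8 were called against 0.0% of all genes, and 1 of 8 had an unadjusted p under 0.05 against 8.77%. Between the controls, F0_3NC vs F0_5NC, 0 of 8 were called against 0.331%, and 1 of 8 had an unadjusted p under 0.05 against 11.9%. DESeq2 also called 0 of the 8 in each of these comparisons. A share of 1 in 8 is near these backgrounds.

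The intervals set how large a change could have been missed. In F0_5251KD vs F0_3NC the 95% intervals of 4 genes (Gja1, Gjc1, Cadm1 and Cadm2) lay within a 1.5-fold change in either direction. Those of Gja4, Gja5 and Cadm4 reached past 2-fold. In F0_5251OV vs F0_5NC the intervals of 7 of 8 genes lay within 2-fold, the exception being Gja4.

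**Figure D2:**
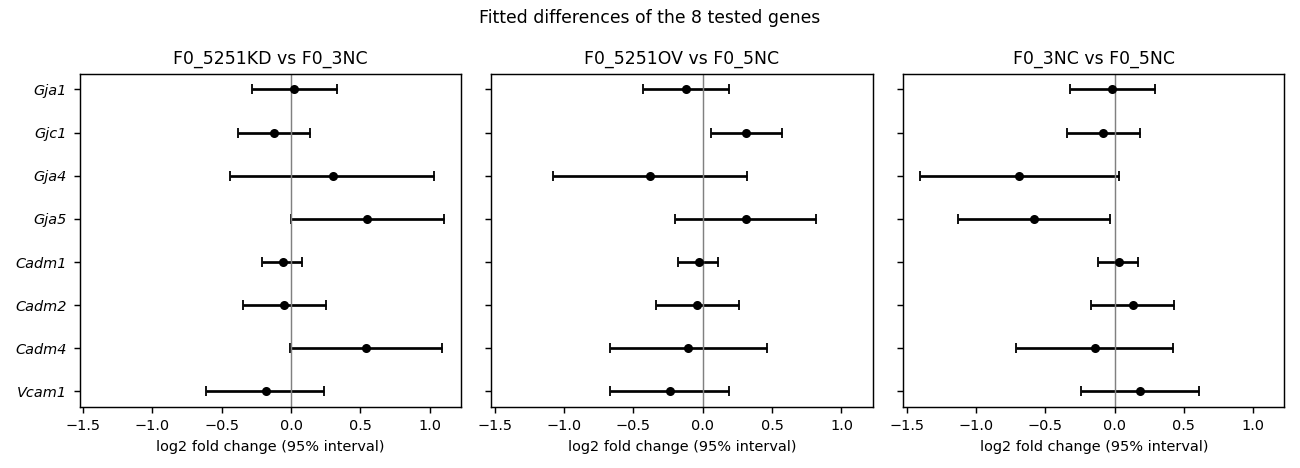
Fitted log2 fold change (horizontal axis) of the 8 tested genes with 95% intervals, one panel per comparison. Intervals that leave out 0 are those of Gjc1 in F0_5251OV vs F0_5NC and Gja5 in F0_3NC vs F0_5NC, both with adjusted p above 0.05 (0.552 and 0.404, edgeR).

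Gja1 (gene ID 14609, chromosome 10, 56377300 to 56390419) did not pass the test in any comparison. Its counts were 743, 795 and 536 in F0_3NC and 707, 710 and 667 in F0_5251KD. They were 825, 586 and 705 in F0_5NC and 753, 643 and 518 in F0_5251OV. The groups overlapped in both comparisons, and the lowest library of all was F0_5251OV replicate 3. The log2 fold change was 0.02 (95% interval -0.28 to 0.33, edgeR adjusted p = 0.983) with the knockdown and -0.12 (-0.43 to 0.19, adjusted p = 0.808) with overexpression. The difference of these effects was 0.14 on the log2 scale (SE 0.201, edgeR adjusted p = 0.782). Without the 4 libraries that held epididymal counts the overexpression value was -0.60. That setting was chosen after seeing the data and leaves 1 library each of F0_5NC and F0_5251OV. These were replicate 1 of F0_5NC, with the highest count of all (825), and replicate 3 of F0_5251OV, with the lowest (518). Without F0_5251OV replicate 3 alone the value was 0.004.

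Gjc1 (connexin 45, gene ID 14615, chromosome 11, 102799477 to 102819686) forms low-conductance channels in vessels and the heart. It was the gene with the clearest separation of groups. Counts were 315, 298 and 292 in F0_5251OV and 238, 257 and 242 in F0_5NC, so that each overexpression library was above each empty vector library. In F0_3NC they were 196, 265 and 233, and in F0_5251KD 191, 231 and 212. F0_5251OV was therefore above all 9 other libraries, while the other groups overlapped. As scaled values, the mean was 19.4 ± 0.445 CPM (SD, n = 3) in F0_5251OV and 15.6 ± 1.36 CPM in F0_5NC. The log2 fold change was 0.31 (SE 0.118, 95% interval 0.06 to 0.57), the unadjusted edgeR p was 0.0193 and the adjusted p 0.552. Without the 4 libraries with epididymal counts it was 0.37 (edgeR adjusted p = 0.505). Non-overlapping groups were 13.9% of all genes in that comparison, and 1 of the 8. With the knockdown the log2 fold change was -0.12 (SE 0.12, adjusted p = 0.898, edgeR), and the groups overlapped. The difference of the effects was -0.43 (95% interval -0.80 to -0.07, edgeR adjusted p = 0.42), where 1 of the 8 genes had an unadjusted p under 0.05, against 11.3% of all genes, and 0.0% of all genes were called. Across any of the 4 groups the adjusted p was 0.321 (edgeR). In that test 0 of the 8 were called against 0.454% of all genes, and 2 of the 8 had an unadjusted p under 0.05 against 7.62%.

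Gja5 (connexin 40, gene ID 14613, chromosome 3, 97032402 to 97053634) is a connexin of arterial endothelium and of the conducting tissue of the heart. Its counts were 18, 21 and 12 in F0_3NC, below the 25, 22 and 27 of F0_5251KD and at or below the 28, 21 and 28 of F0_5NC. In F0_5251OV they were 34, 34 and 26. F0_3NC was the low group, and it entered both comparisons in which the scaled values did not overlap, so the pair are not separate observations. As scaled values, F0_3NC was at 1.08 ± 0.253 CPM, F0_5251KD at 1.58 ± 0.149 CPM, F0_5NC at 1.62 ± 0.208 CPM and F0_5251OV at 2.01 ± 0.289 CPM (SD, n = 3 each). The log2 fold change was 0.55 (SE 0.255, edgeR adjusted p = 0.897) with the knockdown and -0.58 (SE 0.254, adjusted p = 0.404) in F0_3NC vs F0_5NC. Non-overlapping groups were 11.8% of all genes in the first of these and 17.0% in the second, and 1 of the 8 genes in each. With overexpression the log2 fold change was 0.31 (SE 0.239, adjusted p = 0.703, edgeR), and -0.03 without the 4 libraries with epididymal counts. At 12 to 34 counts a library, counting error alone is 20.1% of the mean.

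Gja4 (connexin 37, gene ID 14612, chromosome 4, 127311420 to 127314039), also an endothelial connexin and the channel between oocyte and granulosa cell, had the widest intervals. Its counts were 16, 18 and 23 in F0_3NC and 27, 14 and 29 in F0_5251KD. They were 38, 33 and 22 in F0_5NC and 16, 25 and 29 in F0_5251OV. The groups overlapped in every comparison. Its log2 fold changes were 0.30 (SE 0.342), -0.38 (SE 0.326) and, in F0_3NC vs F0_5NC, -0.69 (SE 0.333), with edgeR adjusted p of 0.908, 0.731 and 0.432. With 1 library left out, the knockdown value ran from 0.11 (without F0_5251KD replicate 3) to 0.55 (without F0_5251KD replicate 2), and the overexpression value from -0.57 (without F0_5251OV replicate 3) to -0.16 (without F0_5251OV replicate 1). Without the 4 libraries with epididymal counts the latter was -0.31 (edgeR adjusted p = 0.829). The lowest value in F0_5251KD, 14 counts, was in replicate 2, and the spread within that group was wider than its distance from the control.

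The 9 listed endothelial markers shared a sign in each treatment comparison, which not all other endothelial genes had. All 9 were higher in F0_5251KD than in F0_3NC (median log2 fold change 0.24, summed level 51.2 to 55.4 CPM against 41.3 to 46.7 CPM). All 9 were lower in F0_5251OV than in F0_5NC (median -0.31, 41.0 to 50.6 CPM against 50.6 to 57.4 CPM). None passed the test by edgeR in either comparison; 1 and 2 of the 9 had an unadjusted p under 0.05, against 4.74% and 8.77% of all genes. Outside the list, the log2 fold change of Selp was -0.29 with the knockdown and 0.57 with overexpression. That of Icam2 was -0.24 with the knockdown and, with the sign of the markers, -0.58 with overexpression. Esam (0.10 and -0.48) and Sele (0.01 and -0.03) had the signs of the markers in both comparisons. Without the 4 libraries with epididymal counts all 9 were still lower with overexpression (median -0.51), from 46.2 CPM in F0_5251OV replicate 3 and 57.4 CPM in F0_5NC replicate 1. Other marker lists were one-sided as well. With overexpression all 12 Sertoli and all 9 Leydig markers were lower, and 6 of 7 spermatid markers were higher. With the knockdown all 7 peritubular muscle markers were higher and all 6 spermatocyte markers lower. Between the controls, all 9 endothelial and all 12 Sertoli markers were lower in F0_3NC than in F0_5NC. Over all tested genes the medians were 0.00. With all 12 libraries Gja4 had the signs of the endothelial markers in both treatment comparisons and Gja5 in the knockdown only. Between the controls Gja4 (-0.69) and Gja5 (-0.58) were lower in F0_3NC, like the markers. Without the 4 libraries with epididymal counts the overexpression values were -0.31 for Gja4 and -0.03 for Gja5, from 1 library in each group. The part of endothelial RNA in the values of Gja4 and Gja5 was not tested.

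Gjb2 (connexin 26, gene ID 14619, chromosome 14, 57098602 to 57104702), a connexin of the cochlea, skin and liver, was near the limit of detection. It had 3, 4 and 7 counts in F0_5251KD against 8, 7 and 1 in F0_3NC, and 4, 5 and 4 counts in F0_5251OV against 9, 8 and 4 in F0_5NC. The range within F0_3NC spans nearly that of all 12 libraries. At these counts no difference was detectable. Without the filter its log2 fold change was -0.17 (edgeR adjusted p = 0.99) with the knockdown and -0.66 (adjusted p = 0.783) with overexpression.

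Cadm1 (SynCAM1, gene ID 54725, chromosome 9, 47530170 to 47862280) was the steadiest gene of the set. Its counts were 1441, 1540 and 1323 in F0_3NC and 1401, 1361 and 1327 in F0_5251KD. They were 1575, 1273 and 1415 in F0_5NC and 1429, 1317 and 1354 in F0_5251OV. The range from lowest to highest was 1.24-fold in FPKM. The log2 fold change was -0.06 (95% interval -0.21 to 0.08, edgeR adjusted p = 0.898) with the knockdown and -0.03 (-0.18 to 0.11, adjusted p = 0.899) with overexpression. As a fold these intervals are 0.87 to 1.06 and 0.88 to 1.08.

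Cadm2 (gene ID 239857, chromosome 16, 66655416 to 67620917), best known from synapses, had 144, 179 and 131 counts in F0_3NC and 131, 134 and 170 in F0_5251KD. It had 144, 130 and 143 counts in F0_5NC and 147, 117 and 136 in F0_5251OV. The highest pair, 179 and 170 counts, were both in LV3 groups, and the groups overlapped. As a fold, the 95% interval was 0.79 to 1.19 with the knockdown and 0.79 to 1.2 with overexpression. The gene spans 965.5 kb, the longest locus of the 10, against 332.1 kb for Cadm1.

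Cadm4 (gene ID 260299, chromosome 7, 24482023 to 24504533), which links the axon to the myelinating glial cell in nerves, had 39, 30 and 22 counts in F0_5251KD and 23, 22 and 18 in F0_3NC. Replicates 1 and 2 of the knockdown were the highest of the 12 libraries, and replicate 3 lay among the controls. In F0_5NC it had 23, 22 and 25 counts and in F0_5251OV 18, 23 and 23. The log2 fold change with the knockdown was 0.54 (SE 0.256, 95% interval -0.01 to 1.09, edgeR unadjusted p = 0.0554, adjusted p = 0.897), and 0.32 without F0_5251KD replicate 1. With overexpression it was -0.11 (SE 0.262), and the difference of the effects was 0.64 (SE 0.366, edgeR adjusted p = 0.49).

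Cadm3 (gene ID 94332, chromosome 1, 173331892 to 173368139), a neuronal member, had 4, 4 and 4 counts in F0_3NC and 4, 2 and 0 in F0_5251KD. It had 1, 1 and 4 counts in F0_5NC and 4, 6 and 4 in F0_5251OV. A count of 0 allows up to 3 counts, for counting error only, so the library at 0 cannot be told from the library at 2. Without the filter its log2 fold change was -0.94 (edgeR adjusted p = 0.896) with the knockdown and 1.19 (adjusted p = 0.713) with overexpression.

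Vcam1 (gene ID 22329, chromosome 3, 116110020 to 116129688) was the most abundant and the least steady of the well-counted genes. Its counts were 1402, 2006 and 1283 in F0_3NC and 1459, 1107 and 1519 in F0_5251KD. They were 1854, 937 and 1380 in F0_5NC and 1304, 1205 and 947 in F0_5251OV. F0_3NC replicate 2 and F0_5NC replicate 1 stood above the rest of their control groups, and the groups overlapped in all comparisons. The log2 fold change was -0.18 (95% interval -0.61 to 0.24, edgeR adjusted p = 0.901) with the knockdown and -0.24 (-0.67 to 0.19, adjusted p = 0.725) with overexpression. Without F0_3NC replicate 2 the knockdown value was -0.01. Without the 4 libraries with epididymal counts the overexpression value was -0.89 (edgeR adjusted p = 0.256), from 1 library in each group, and without F0_5NC replicate 1 alone it was -0.03.

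When counts were summed over the libraries of a group and compared by the sampling error of reads alone, as in the random sampling model that the study's methods name, Vcam1 had an adjusted p of 7.66e-18 with overexpression at a log2 ratio of -0.30, and Gja1 had 0.000919 at -0.17. Neither reached the fold limit of that test, an absolute log2 ratio of 1. With edgeR, a test that takes in the spread between libraries, the adjusted p were 0.725 and 0.808. Pooled p-values of the other genes and comparisons are not given here. Summed counts of Gjc1 were higher in F0_5251OV (905) than in F0_5NC (737). Those of Vcam1 were also lower in F0_5251KD (4085) than in F0_3NC (4691).

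That spread set the genes apart. Within groups the SD of log2 CPM was 0.302 for Vcam1, above that of 98.4% of the 814 genes of like level (72.9 to 101.15 CPM, median SD 0.117). For Cadm1, of the same level, it was 0.056, with 4.7% of these genes below it. Gja1 had an SD of 0.202, above that of 87.9% of 815 genes of its level (median 0.130). Gjc1 (0.136), Cadm2 (0.151), Cadm4 (0.237) and Gja5 (0.219) were below the median of genes of like level, and Gja4 (0.404) was above it. These are descriptions over genes, which are not replicates.

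**Figure D3:**
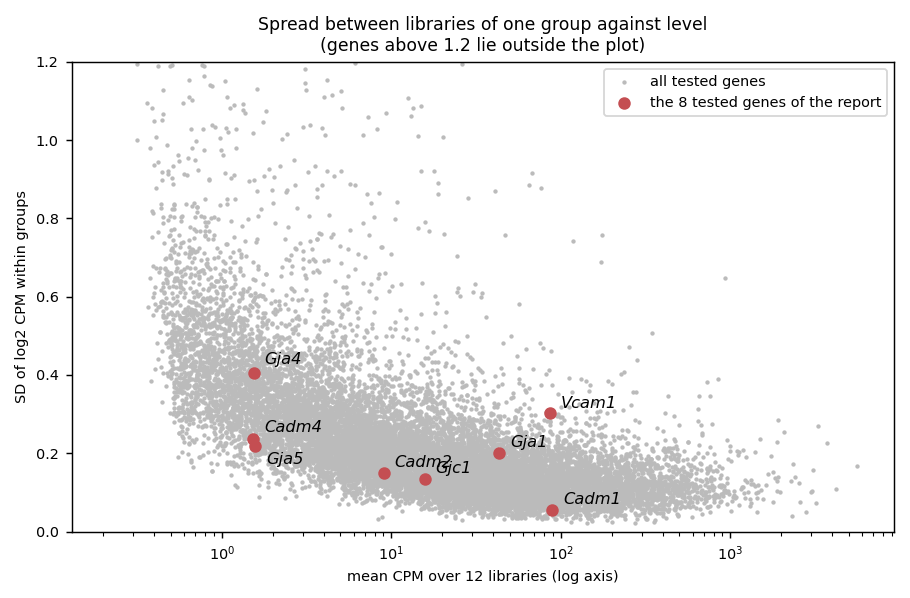
SD of log2 CPM within groups (vertical axis) against mean CPM over 12 libraries (horizontal log axis) for all tested genes (grey) and the 8 tested connexin, Cadm and Vcam1 genes (red). Vcam1 (0.302) and Cadm1 (0.056) have nearly the same level and lie on opposite edges of the cloud.

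The libraries high in Vcam1 were in part those high in Gja1 and Cadm1. Of 28 pairs among the 8 genes, compared over 12 libraries in log2 CPM with a permutation test (two-sided, 100000 permutations), 3 had a p under 0.05 for Pearson's r and 0 passed adjustment over the 28 pairs. Gja1 and Cadm1 had Pearson's r = 0.66 (permutation p = 0.0196, adjusted 0.183) and Spearman's rho = 0.85 (permutation p = 0.00086, adjusted 0.0241). Without the 2 libraries farthest from the Gja1 median r was 0.92, and it was 0.62 within the 6 LV3 libraries and 0.69 within the 6 LV5 libraries. Gja1 and Vcam1 had r = 0.67 (permutation p = 0.0178, adjusted 0.183) and rho = 0.66 (permutation p = 0.024, adjusted 0.336). Here r was 0.70 without 2 libraries, 0.30 within LV3 and 0.90 within LV5. Cadm1 and Vcam1 had r = 0.68 (permutation p = 0.0159, adjusted 0.183) and rho = 0.59 (permutation p = 0.0491, adjusted 0.438). Their r fell to 0.38 without the 2 libraries farthest from the Cadm1 median, and it was 0.45 within LV3 and 0.87 within LV5. Leaving out the extremes of a gene narrows its range, which can lower r by itself. All pairs share the library and its scaling.

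**Figure D4:**
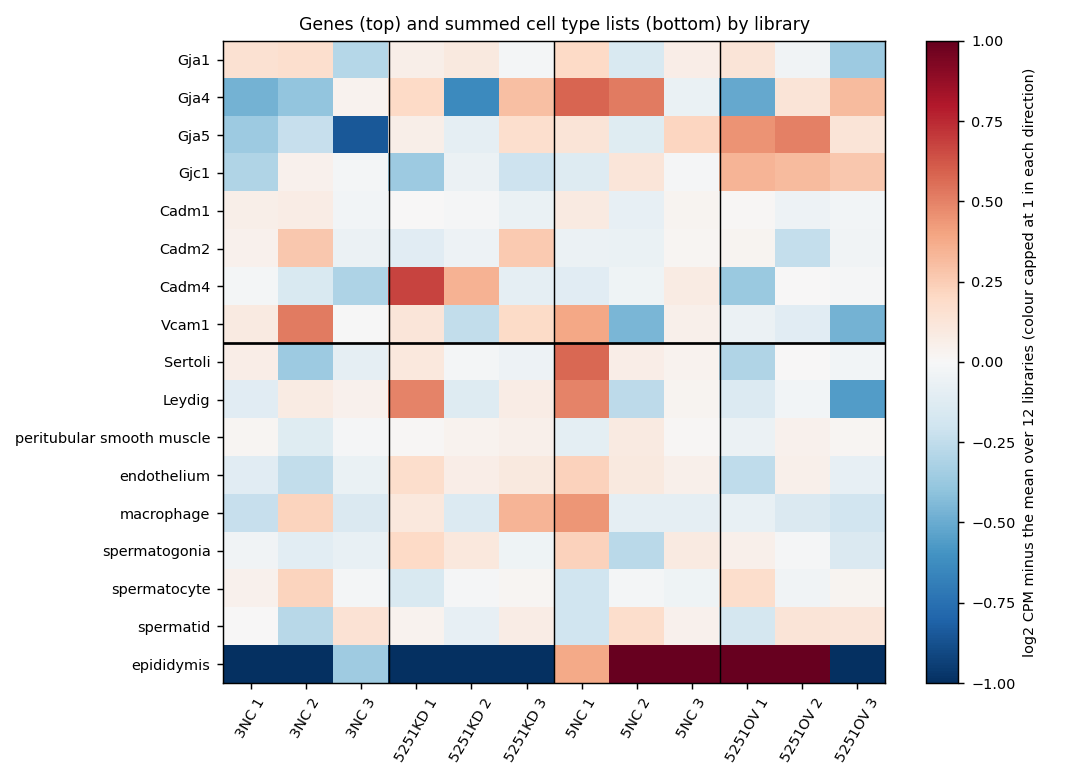
Log2 CPM minus its mean over 12 libraries (colour, capped at 1 in each direction) for the 8 tested genes (top) and for the summed marker lists of 9 tissue or cell types (bottom), by library. F0_5NC replicate 1 is high for Gja1, Vcam1 and the Sertoli, Leydig and macrophage sums; epididymal sums are high in 4 libraries.

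In F0_5NC replicate 1 the Leydig sum was 3154.9 CPM and the macrophage sum 127.5 CPM, against 1871.8 to 2286.6 and 88.0 to 88.2 CPM in the other libraries of its group. Vcam1 was also highest there in its group, at 36.60 FPKM. In F0_5251OV replicate 3, with the lowest Leydig sum of the 12 libraries (1520.2 CPM), Gja1 (10.88 FPKM) and Vcam1 (18.11 FPKM) were at their lowest. F0_5251KD replicate 1, at 3156.5 CPM for Leydig genes, had Vcam1 at 28.91 FPKM, between the other libraries of its group. The highest Vcam1 of the 12 libraries was in F0_3NC replicate 2 (37.69 FPKM), where Gja1 was at 16.42 FPKM. That library had the lowest Sertoli sum of the 12 (881.8 CPM), a Leydig sum of 2372.8 CPM and a macrophage sum of 109.5 CPM. The part of these cell types in the Gja1 and Vcam1 values was not tested.

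Genes most like each member over the 12 libraries, by Pearson's r of log2 CPM among genes of at least 5 CPM, were picked for the highest r and carry no test. For Gja1 they were Crebl2 (0.939), Ppp2r3a (0.901) and Prrg3 (0.900), and for Vcam1 Creb3l2 (0.936), Setd7 (0.924) and Calu (0.923). For Cadm1 they were Sh2d4a (0.910), Zdhhc13 (0.900) and Mamld1 (0.871), and for Cadm2 Col4a3 (0.943), Gm904 (0.893) and Usp3 (0.886). For Cadm4 they were Mcoln1 (0.907), Kti12 (0.839) and Myo1c (0.834). For Gjc1 they were Hadha (0.917), Acsl6 (0.883) and Oxsm (0.874), for Gja4 Nrbp1 (0.897), Cinp (0.874) and Ap1s1 (0.863), and for Gja5 Adamts5 (0.828), Galk2 (0.796) and Ift52 (0.788). None of these was itself a connexin, a Cadm gene or Vcam1.

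The rest of the gap junction machinery did not pass the test either. Of 18 other connexin and pannexin genes 10 passed the filter, and 0 were called in both treatment comparisons (median log2 fold change -0.03 with the knockdown and 0.00 with overexpression, where all tested genes had 0.00). The highest of the 18 in FPKM was Gja6, a rodent testis connexin, at a mean of 3.82. Among those of at least 1 CPM the largest positive value was that of Panx2, a pannexin channel, at 0.74 (SE 0.305, edgeR adjusted p = 0.897) with the knockdown and that of Panx1 at 0.18 (SE 0.235, edgeR adjusted p = 0.834) with overexpression. All 10 listed scaffold and trafficking genes were tested and 0 were called. Tjp1 (ZO-1), which binds the connexin tail, was at 18.3 FPKM. The extremes were Mapre1, a microtubule end protein, at -0.17 and Cav1, of caveolae, at 0.06 with the knockdown, and Cav1 at -0.31 and Ckap5 at 0.13 with overexpression.

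The partners of the Cadm proteins and of Vcam1 gave the same count of 0. Of 9 nectins and relatives 7 were tested. Nectin3, which spermatids carry at their junction with Sertoli cells, was the most abundant at 180.1 FPKM, and its log2 fold change was -0.18 (SE 0.101) with the knockdown and 0.16 (SE 0.101) with overexpression. Nectin4 was at 0.47 (SE 0.336) in the first comparison and Nectin2, the Sertoli cell partner of Nectin3, at -0.26 (SE 0.131) in the second. Of 11 cytoplasmic partners, Dlg1 was at -0.19 and Epb41l1 at 0.30 with the knockdown, and Mpp1 at -0.66 (SE 0.242, edgeR adjusted p = 0.552) and Farp1 at 0.69 (SE 0.31, adjusted p = 0.562) with overexpression. The medians of that list were 0.02 and 0.01. Of 7 integrins and partners of Vcam1, Itga4, the chain that binds it, was at -0.44 (SE 0.291) and Itga9 at 0.17 with the knockdown. Ezr, an ezrin family linker to actin, was at -0.53 (SE 0.203, adjusted p = 0.552, edgeR) and Rdx at 0.04 with overexpression. The medians were -0.12 and -0.26, with 2 and 1 of 7 genes higher.

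Of 16 other immunoglobulin superfamily adhesion genes 14 were tested and 0 called. With the knockdown the median was 0.03, and the extremes were Clmp at 0.34 and Cxadr at -0.37, both proteins of epithelial junctions. With overexpression the median was -0.20, with 11 of 14 lower. Among those of at least 1 CPM the extremes were Esam, of endothelial junctions, at -0.48 (SE 0.243) and Igsf11 at 0.08 (SE 0.074). Icam2, under that level, was at -0.58. The endothelial selectins Sele and Selp, which act with Vcam1 in the capture of leukocytes, were at 0.01 (SE 0.254) and -0.29 (SE 0.328) with the knockdown and at -0.03 (SE 0.256) and 0.57 (SE 0.329) with overexpression. Named list genes all had an adjusted p of 0.552 or above (edgeR). Panx2 had an unadjusted p under 0.05 with the knockdown (0.0306, edgeR), as did 3 cytoplasmic partners, 1 integrin or partner and 1 other adhesion gene with overexpression.

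**Figure D5:**
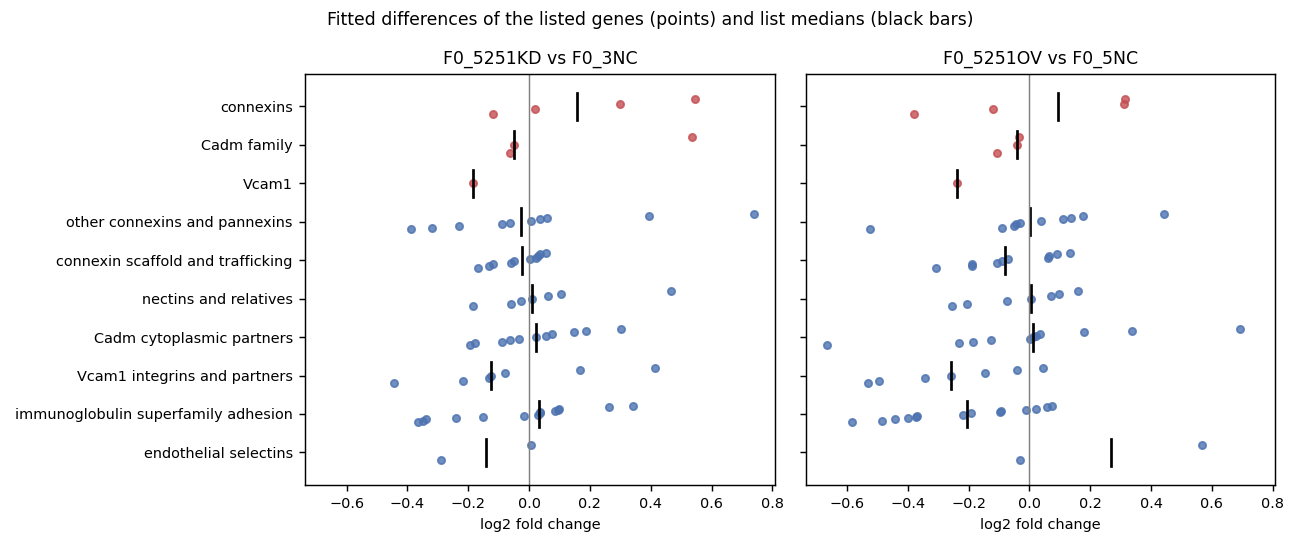
Fitted log2 fold changes (horizontal axis) of the tested genes of each list, one point per gene, with the list median as a black bar, for the knockdown (left) and overexpression (right) comparisons; the connexin, Cadm and Vcam1 genes of the report are red. The medians lie between -0.26 and 0.27, and no point passed the test.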

How the data were processed

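By the study's methods, testis mRNA was taken from TRIzol RNA with oligo(dT) beads, whereas the labels name total RNA as the library input. It was fragmented, copied with random hexamers and sequenced on an Illumina instrument. The authors deposited 1 table of estimated counts (12.0% not whole; all 120 counts of the 10 genes were whole). The FPKM values in it were normalized by the authors to transcript length and library total. Before deposit the authors aligned reads with SOAPaligner (build mm10 per the labels); the tool that gave the counts and FPKM values, and any use of strand, are not given in the sources used here. Another 18 columns of per-sample values matched no sample and were not used, nor were 14 columns of group means by the authors.

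Counts were rounded. The main test was that of edgeR 4.0.16, run in R 4.3.3 (TMM, filterByExpr, quasi-likelihood F test, two-sided, 12 libraries, 4 groups, 8 residual degrees of freedom). The threshold was an adjusted p of 0.05 (Benjamini-Hochberg), and 95% intervals took moderated degrees of freedom. Log2 CPM used a prior count of 2. The tests were checked on simulated counts. Named genes were the 10 genes, the list genes called, and those of largest change in each direction (at least 1 CPM) per list and treatment comparison; for likeness, the 3 highest r. Some genes that this rule names are not reported here. The genes, lists and rules were chosen with earlier results of these data known. Coordinates and promoters are from RefSeq (GRCm38.p6), matched by gene ID for all 10 genes. Alternatives were DESeq2 1.42.0, limma 3.58.1, other scaling and filters, 2-group fits, a replicate block, leaving out libraries, and pooled counts.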

Additional observations from a re-analysis of the deposited data

How the results depend on the processing

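No setting called any of the 8 tested genes, or, without the filter, Gjb2 or Cadm3. Their adjusted p lay between 0.684 and 1.0 for F0_5251KD vs F0_3NC, 0.256 and 0.998 for F0_5251OV vs F0_5NC, 0.337 and 0.998 for F0_3NC vs F0_5NC, and 0.326 and 1.0 for the difference of effects (pooled counts aside). Of 240 log2 fold changes with 1 library left out 213 kept their sign, and of 280 under other alternatives 264 did. The counts over all genes moved more, and the cause was not tested. The main counts were 4, 0, 54, 0 and 74 for the first 3 comparisons in the order above, the difference of effects and any of the 4 groups, and DESeq2 gave 20, 28, 138, 35 and 210. Pooled counts gave 143, 191 and 307. For the knockdown limma gave 2 on log2(FPKM + 1) and 0 on log2(FPKM + 0.1). For overexpression 3 genes were called without the filter and 3 in a fit of the 2 groups alone, and for the difference limma on log2(FPKM + 1) gave 1. Without the 4 libraries with epididymal counts any of the 4 groups gave 35. With 1 library left out the counts were 0 to 4 (knockdown), 0 to 1 (overexpression), 30 to 54 (controls; 30 without F0_5NC replicate 3 and 35 without F0_3NC replicate 2) and 0 to 1 (difference).

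Same-numbered libraries did not deviate together (r from -0.173 to 0.065) in F0_5251KD vs F0_3NC, F0_5251OV vs F0_5NC and F0_3NC vs F0_5NC. The other pairs of groups were not compared. With 3 libraries in a group this does not exclude a shared block, and the replicate numbers were taken only to name libraries. With the replicate block 2 genes were called for the knockdown and 0 for overexpression, and none of the 8.

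Signs turned for the following values. Between the controls Cadm1 was -0.013 with limma at both pseudocounts, and without the 4 libraries with epididymal counts Cadm1 was -0.075, Gjc1 0.018 and Vcam1 -0.193. Without these libraries Gja5 was -0.031 and Cadm4 0.075 with overexpression, and Cadm1 0.086 for the difference of effects. For that difference Cadm2 was 0.016 with upper-quartile scaling, 0.001 with DESeq2, 0.007 with no filter, 0.012 with a filter of 1 CPM in 3 libraries, and 0.029 and 0.057 with limma (pseudocounts 1 and 0.1), where Cadm1 was 0.027 and 0.028. With 1 library left out, the knockdown values ran from -0.179 to 0.051 for Cadm2 and -0.112 to 0.096 for Gja1. The overexpression values ran from -0.077 to 0.004 for Cadm1, -0.176 to 0.017 for Cadm4, -0.098 to 0.034 for Cadm2 and -0.237 to 0.004 for Gja1. Between the controls they ran from -0.149 to 0.025 for Gjc1, -0.108 to 0.114 for Gja1, -0.019 to 0.060 for Cadm1 and -0.010 to 0.395 for Vcam1. For the difference they ran from -0.148 to 0.250 for Vcam1, -0.146 to 0.084 for Cadm2 and -0.061 to 0.014 for Cadm1. Where a group was left with 1 library, that library was assumed to vary like the others. Depth limits Gjb2 and Cadm3 (0 to 9 counts) and widens the intervals of Gja4, Gja5 and Cadm4.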
